A study of Mus musculus with 23 samples.

Results

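The transcription factors that define Sertoli cells were followed here across postnatal testis development and testis culture. The members are 7 genes, Sox9, Sox8, Wt1, Gata1, Gata4, Dmrt1 and Nr0b1, out of 27466 genes in the count table, chosen by name and matched through their NCBI gene identifiers. All 7 passed the filter on low counts and were tested with 19255 genes in all. Sertoli cells are the somatic cells of the seminiferous tubules that carry the germ cells through spermatogenesis. In the fetal gonad Sox9, an SRY-related factor switched on downstream of SRY, directs the supporting cells to the Sertoli fate, and Sox8, its close relative of the SoxE family, acts with it. Wt1, a zinc finger factor, and Gata4, a zinc finger factor shared by several gonadal somatic cells, are needed to form the gonad and to keep Sertoli cells in place. Dmrt1, a DM domain factor, keeps postnatal Sertoli cells from taking a granulosa fate and is also present in spermatogonia. Nr0b1 encodes the nuclear receptor DAX1, a partner and repressor of the steroidogenic factor SF-1. Gata1, better known from red blood cells, is switched on in Sertoli cells in the first postnatal weeks. Sertoli cells multiply in the first postnatal weeks, then stop dividing and mature around the time when meiosis spreads along the tubules.

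The libraries are polyadenylated RNA of whole testes of wild-type CD-1 mice, an outbred strain, germ and somatic cells together. In vivo testes were taken at 6.5 days postpartum (dpp; 1 fresh library and 3 thawed after controlled slow freezing, CSF), 10.5 dpp (3 libraries), 22.5 dpp (3) and 36.5 dpp (2). Explants of 6.5 dpp testes were cultured for 4 days (D4, 3 libraries), 16 days (D16, 2) or 30 days (D30, 3 from fresh and 1 from CSF tissue), which match in age the 10.5 dpp, the 22.5 dpp and the 36.5 dpp testes. All explants grew at a gas-liquid interphase with serum replacement and retinol, explants were pooled for each replicate, and the necrotic centre was cut away before extraction, so that a culture library samples the outer part of the tissue. Another 2 of the 23 columns were left out, the library labelled 6.5 dpp fresh replicate 1, whose sum of 6 spermatocyte markers (2656 CPM, counts scaled to the library total) stood far above the 116 to 206 CPM of the other libraries of its age, and 6.5 dpp fresh replicate 3, whose counts are the same as those of replicate 2 for every gene. The 21 libraries hold 28351546 to 69029328 counts. In such bulk samples fewer Sertoli cells and less RNA per cell cannot be told apart.

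The members lie on 6 chromosomes (GRCm38.p6, RefSeq), Wt1 at chr2:105126529-105173614, Sox9 at chr11:112782210-112787757, Gata4 at chr14:63198914-63271712, Sox8 at chr17:25565893-25570686, Dmrt1 at chr19:25505618-25604328, and Gata1 and Nr0b1 on the X chromosome at chrX:7959260-7976663 and chrX:86191775-86195947. The list holds 2 pairs of relatives, so the coding sequences are shown where the relatives are most alike, because the pairs are read against each other below. In the stretch around their longest identical run (23 bases), 75 of 89 coding bases of Sox9 and Sox8 (84.3%) were the same. Capitals mark the bases that differ.
Sox9, coding bases 454 to 542: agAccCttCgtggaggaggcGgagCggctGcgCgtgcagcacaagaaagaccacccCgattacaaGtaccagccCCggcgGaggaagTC
Sox8, coding bases 436 to 524: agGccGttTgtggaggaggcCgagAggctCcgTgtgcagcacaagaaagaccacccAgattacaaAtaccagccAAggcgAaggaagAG
The same stretch of Gata4 and Gata1 (longest identical run 24 bases) shared 71 of 90 bases (78.9%).
Gata4, coding bases 670 to 759: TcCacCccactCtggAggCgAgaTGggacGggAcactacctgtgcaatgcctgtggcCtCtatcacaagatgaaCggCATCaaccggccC
Gata1, coding bases 631 to 720: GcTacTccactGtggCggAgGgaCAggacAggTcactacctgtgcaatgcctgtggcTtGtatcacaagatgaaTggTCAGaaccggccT
Over whole transcripts (GENCODE M21), no window of 50 bases, the read length, of any member was found in a transcript of another gene on the same strand, so an error-free read of one relative could not be given to the other. Sox8 alone shared windows with a gene on the opposite strand: 280 of 3115 (8.99%) lay in 2810468N07Rik, an antisense RNA that overlaps 329 exonic bases and has no row in the table. The library kit keeps strand, but the strand setting of the counting is not given in the sources used here.

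Gata1 and Nr0b1 followed a course of their own among the members, and the 250 bases before their RefSeq start sites are shown for this reason.
Nr0b1, chrX:86191525-86191774, plus strand: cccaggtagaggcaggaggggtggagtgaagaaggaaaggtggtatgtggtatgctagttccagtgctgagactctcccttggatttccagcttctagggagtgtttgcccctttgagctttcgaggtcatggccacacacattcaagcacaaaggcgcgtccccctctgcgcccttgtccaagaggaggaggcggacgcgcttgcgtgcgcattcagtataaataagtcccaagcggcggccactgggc
Gata1, chrX:7967911-7968160, minus strand: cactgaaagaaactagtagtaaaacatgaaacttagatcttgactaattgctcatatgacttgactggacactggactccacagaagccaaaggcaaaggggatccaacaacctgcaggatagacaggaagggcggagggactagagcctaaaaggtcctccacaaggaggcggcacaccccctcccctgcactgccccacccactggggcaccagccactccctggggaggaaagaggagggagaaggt
These windows were searched on both strands for AGATAA (bound by GATA factors), AACAAT (SOX factors) and AAGGTCA (SF-1), which are found in 9.99%, 9.42% and 4.08% of 32851 windows of the same length before annotated starts. No exact match to any of the 3 motifs was found in either window, nor in that of Sox8, and capitals are therefore absent. Sites that differ from these letters were not searched, so the windows may hold variant sites. In mouse testis Gata1 is known to be read from a first exon upstream of the one used in blood cells. The Gata1 window stands at the downstream start, and counts per gene do not tell the starts apart.

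Germ cell RNA changed greatly along both courses. The summed level of 6 spermatocyte markers was 116 to 206 CPM at 6.5 dpp and 173 to 228 CPM at 10.5 dpp, and then between 3160 and 5137 CPM at 22.5 dpp and between 5417 and 8709 CPM at 36.5 dpp. In culture it was 293 to 353 CPM at D4, and then between 1303 and 3994 CPM at D16 and between 1134 and 4318 CPM at D30. That of 6 spermatid markers was 16660 to 21474 CPM at 36.5 dpp and 366 to 1676 at D30. CPM are shares of a library, so fold changes were taken with TMM factors (0.645 to 1.15 over the libraries). The median gene then moved by less than 0.1 on the log2 scale in all comparisons but 36.5 against 22.5 dpp, where it moved by -0.13. With library size alone it moved by -0.23 from 10.5 to 22.5 dpp, by -0.63 from 22.5 to 36.5 dpp and by 0.60 between D30 and 36.5 dpp, and with RLE factors (those of DESeq2) by 0.12, 0.07 and -0.29.

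In vivo, the SoxE genes, Wt1, Gata4 and Dmrt1 were at their highest at 6.5 and 10.5 dpp, fell steeply by 22.5 dpp and fell again by 36.5 dpp. Gata1 rose between 6.5 and 10.5 dpp and, like Nr0b1, showed no fall that passed the test between 10.5 and 22.5 dpp. Both then fell with the others by 36.5 dpp.

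Sox9 was measured, in CPM and in the order of the replicates (6.5 dpp fresh first, then CSF), at 6.5 dpp 199, 191, 171 and 113, at 10.5 dpp 202, 175 and 181, at 22.5 dpp 26.7, 58.3 and 26.2 and at 36.5 dpp 13.9 and 13.4. Sox8 was measured at 6.5 dpp 153, 126, 126 and 81.1, at 10.5 dpp 138, 124 and 136, at 22.5 dpp 24.3, 47.1 and 23.3 and at 36.5 dpp 8.67 and 10.6 CPM. In both SoxE genes the lowest 10.5 dpp library stood above the highest 22.5 dpp library, which in turn stood above both 36.5 dpp libraries, while the third CSF library was the lowest at 6.5 dpp. Wt1 was measured at 6.5 dpp 278, 253, 244 and 146, at 10.5 dpp 326, 290.2 and 301, at 22.5 dpp 75.3, 135 and 81.7 and at 36.5 dpp 24.6 and 30.2 CPM. Gata4 was measured at 6.5 dpp 396, 391, 393 and 193, at 10.5 dpp 332, 306 and 348, at 22.5 dpp 53.7, 86.6 and 52.6 and at 36.5 dpp 17.9 and 24.0 CPM. The third CSF library of 6.5 dpp stood apart below all others of its age for Gata4. Dmrt1 was measured at 6.5 dpp 403, 394, 353 and 395, at 10.5 dpp 397, 375 and 393, at 22.5 dpp 63.3, 113 and 60.7 and at 36.5 dpp 23.4 and 16.4 CPM. The 6.5 and 10.5 dpp libraries of Dmrt1 lay close together, the third CSF library included. In each of these 5 genes, and also in Gata1 and Nr0b1, replicate 2 at 22.5 dpp was the highest of its age. That library had the lowest spermatocyte sum of its age (3160 CPM, against 4689 and 5137). The part of germ cell content in this spread was not tested.

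Gata1 was measured at 6.5 dpp 34.0, 26.8, 21.4 and 23.2, at 10.5 dpp 43.4, 58.5 and 48.0, at 22.5 dpp 33.1, 49.6 and 39.7 and at 36.5 dpp 7.87 and 9.41 CPM. Nr0b1 was measured at 6.5 dpp 66.8, 43.0, 43.6 and 46.7, at 10.5 dpp 63.4, 76.5 and 60.3, at 22.5 dpp 37.8, 60.1 and 50.4 and at 36.5 dpp 16 and 15.1 CPM. For Gata1 no 6.5 dpp library reached the lowest 10.5 dpp library, whereas the 22.5 dpp libraries overlapped those of 10.5 dpp. For Nr0b1 the libraries of 6.5, 10.5 and 22.5 dpp overlapped, and for both genes the 36.5 dpp libraries lay far below.

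**Figure D1:**
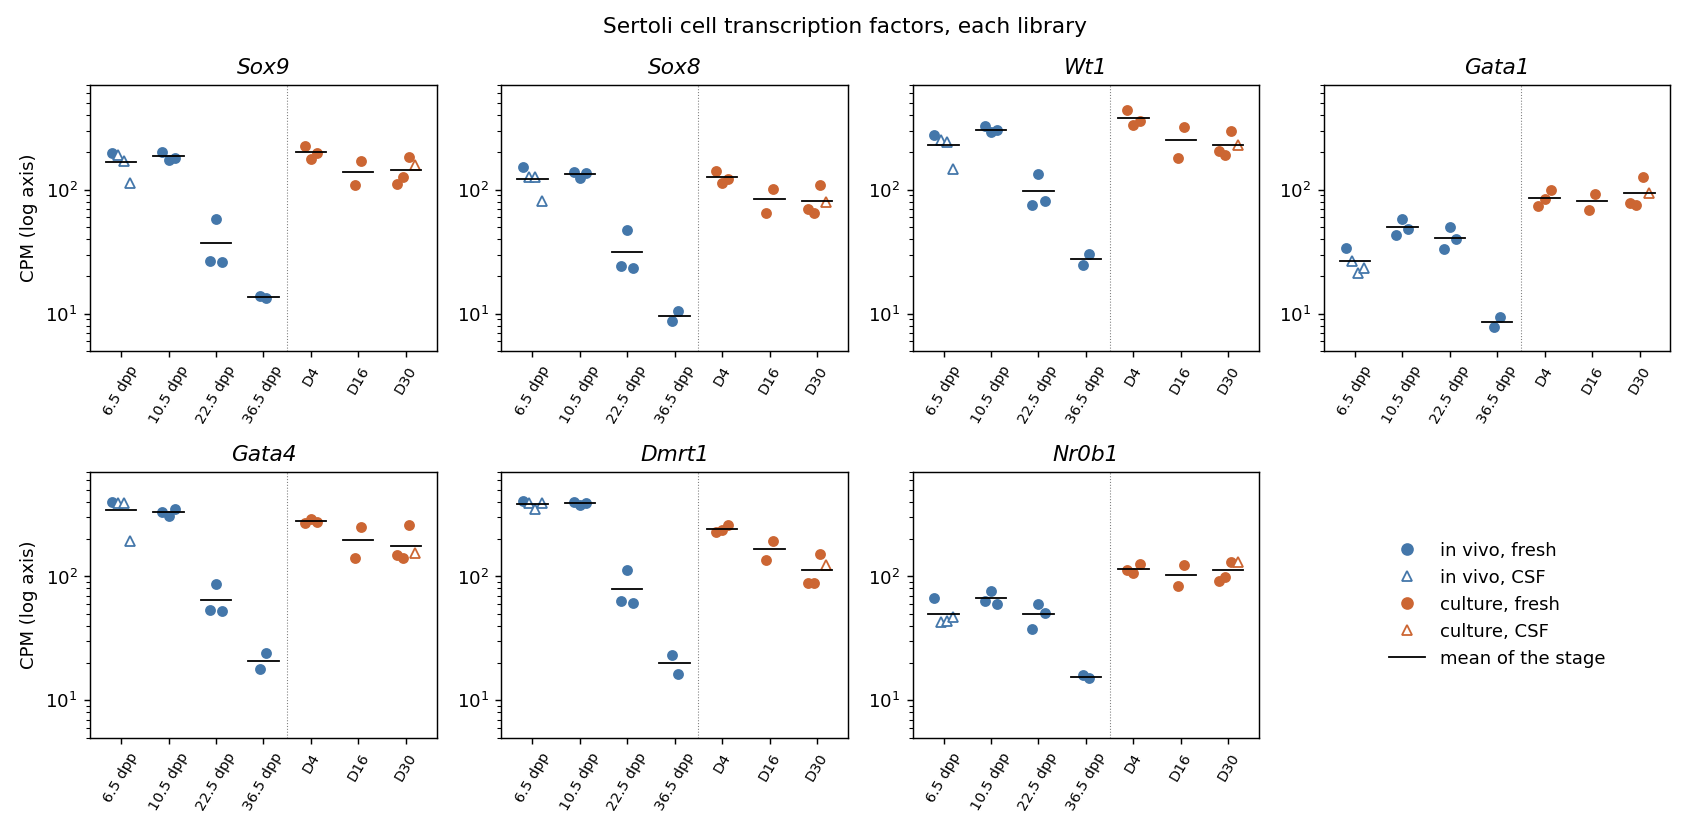
Level of each member in each of the 21 libraries (vertical axis, CPM, log scale) by stage (horizontal axis), in vivo ages in blue and culture days in orange, fresh tissue as filled circles, CSF tissue as open triangles, with a bar at the stage mean. In vivo libraries of 36.5 dpp are the lowest of every member, while the culture libraries of D30 stay at 64.5 CPM or more for each.

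From 6.5 to 10.5 dpp, 1 of 7 members rose (edgeR quasi-likelihood test with Benjamini-Hochberg adjustment over all genes, adjusted p under 0.05, used for every fold change below), where 0.675% of all genes rose and 0.467% fell. This was Gata1, by a log2 fold change of 0.86 ± 0.19 (SE; adjusted p = 0.0345). The other 6 differed by -0.11 to 0.36. The call on Gata1 was lost when any 1 of 7 libraries was left out (3 CSF libraries of 6.5 dpp, 3 of 10.5 dpp and D4 replicate 2, log2 fold changes 0.73 to 0.95, adjusted p = 0.0544 to 0.249), in a fit of the groups compared alone (0.87, adjusted p = 0.157) and with fresh libraries only (0.53, adjusted p = 1), although DESeq2 made it too. At 6.5 dpp 3 of 4 libraries were CSF and at 10.5 dpp all were fresh, so age and freezing cannot be told apart in these 3. Over all genes, 130 rose and 90 fell, against 139 and 62 with library size alone.

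From 10.5 to 22.5 dpp, 5 of 7 members fell, where 27.9% of all genes fell and 33.6% rose. The log2 fold change was -2.06 ± 0.26 (SE; adjusted p = 2.75e-06) for Sox9, -2.08 ± 0.27 (SE; adjusted p = 4.45e-06) for Gata4 and -2.03 ± 0.22 (SE; adjusted p = 5.78e-07) for Dmrt1. That of Sox8 was -1.80 (adjusted p = 8.26e-06) and that of Wt1 -1.38 (adjusted p = 9.13e-05). Gata1 differed by -0.01 ± 0.21 (SE; adjusted p = 0.977) and Nr0b1 by -0.15 ± 0.20 (SE; adjusted p = 0.524). The median over the members was -1.80, beside 0.06 over all genes. The 5 falls were called in every fit with 1 library left out, and the sign of the Gata1 value depended on the scaling and on single libraries.

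From 22.5 to 36.5 dpp, 7 of 7 members fell, where 27.5% of all genes fell and 23.3% rose. The median over the members was -1.18. Gata1 fell most, by a log2 fold change of -1.72 ± 0.25 (SE; adjusted p = 3.32e-05), followed by Dmrt1 at -1.46 (adjusted p = 1.81e-04) and Wt1 at -1.30 (adjusted p = 9.75e-04). The other falls were -1.18 (adjusted p = 0.00242) for Sox8, -1.15 (adjusted p = 6.26e-04) for Nr0b1, -1.09 (adjusted p = 0.0065) for Gata4 and -0.90 (adjusted p = 0.0147) for Sox9. The call on Sox9 was lost when 22.5 dpp replicate 2 (-0.51, adjusted p = 0.109) or either 36.5 dpp library was left out (-0.91 and -0.89, adjusted p = 0.0724 and 0.0669) and in a fit of the 2 groups alone (-0.83, adjusted p = 0.0892), and that on Gata4 without 36.5 dpp replicate 1 (-0.88, adjusted p = 0.0873). Over all genes, 4485 rose and 5286 fell, against 3247 and 8379 with library size alone and 5161 and 4047 with RLE factors. From 10.5 to 22.5 dpp these counts were 6464 and 5371, and 5516 and 7082 with library size alone.

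In the explants no member had a fall that passed the test from D4 to D16 or from D16 to D30, but over the whole course from D4 to D30 Dmrt1, Wt1 and Sox8 fell. All members kept levels of at least 64.5 CPM to D30, and each was higher in culture than in vivo at D16 and at D30. At D4 the picture was mixed: Gata1 and Nr0b1 were higher than at 10.5 dpp, and the other 5 members did not pass the test.

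Sox9 was measured, in CPM and in the order of the replicates (D30 fresh first, then CSF), at D4 227, 177 and 199, at D16 108 and 169 and at D30 112, 126, 184 and 159. Sox8 was measured at D4 142, 113 and 122, at D16 65.5 and 102 and at D30 69.9, 64.5, 109 and 79.3 CPM. Every culture library of both SoxE genes stood above every 22.5 and 36.5 dpp library. Wt1 was measured at D4 436, 334 and 358, at D16 181 and 321 and at D30 205, 191, 298 and 229 CPM. Gata4 was measured at D4 271, 292 and 276, at D16 142 and 252 and at D30 149.8, 141, 260.0 and 155 CPM. Dmrt1 was measured at D4 229, 236 and 259, at D16 137 and 195 and at D30 88.5, 89.0, 152 and 124 CPM. Wt1 and Gata4 in culture again stood above all libraries of 22.5 and 36.5 dpp. Dmrt1 was lower at D4 than in any 10.5 dpp library and overlapped 22.5 dpp at D30, while it stayed above both 36.5 dpp libraries.

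Gata1 was measured at D4 73.3, 83.7 and 98.9, at D16 68.4 and 92.3 and at D30 78.5, 75.1, 126 and 94.0 CPM. Nr0b1 was measured at D4 114, 107 and 125, at D16 83.6 and 123 and at D30 91.4, 99.7, 131 and 131 CPM. For both genes every culture library exceeded every in vivo library of any age. In all 7 members D16 replicate 2 stood above replicate 1, and the spermatocyte sum was 1303 CPM in replicate 2 and 3994 CPM in replicate 1. In all 7 members D30 fresh replicate 3 was the highest D30 library, and it had the lowest spermatocyte sum of its day (1134 CPM). For Nr0b1 the D30 CSF library came within 1 CPM of it. The part of germ cell content in these differences was not tested.

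At D4 against 10.5 dpp, 2 of 7 members were higher, where 4.92% of all genes were higher and 3.18% lower. The log2 fold change was 0.86 ± 0.21 (SE; adjusted p = 0.0136) for Gata1 and 0.87 ± 0.20 (SE; adjusted p = 0.00951) for Nr0b1. Dmrt1 differed by -0.60 ± 0.21 (SE; adjusted p = 0.104), with no overlap between the groups, and the others by -0.14 to 0.39. In a fit of the 2 groups alone, 4 members passed, among them Dmrt1 (-0.59, adjusted p = 2.61e-04) and Wt1 (0.40, adjusted p = 0.0184). Without 10.5 dpp replicate 1 or replicate 3, none of the 7 passed (Gata1 at 0.77 and 0.82 with adjusted p = 0.0837 and 0.0707, Nr0b1 at 0.84 and 0.80 with 0.0521 and 0.0643), and without D4 replicate 3 Gata1 missed the threshold (0.75, adjusted p = 0.0704). Over all genes 947 were higher and 612 lower, against 705 and 702 with library size alone.

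At D16 against 22.5 dpp, 7 of 7 members were higher, where 14.0% of all genes were higher and 11.8% lower. Sox9 differed most, by a log2 fold change of 1.78 ± 0.27 (SE; adjusted p = 2.74e-04), then Gata4 by 1.47 ± 0.29 (SE; adjusted p = 0.0019) and Sox8 by 1.27 ± 0.27 (SE; adjusted p = 0.00307). Wt1 differed by 1.23 (adjusted p = 0.00338), Dmrt1 by 0.93 (adjusted p = 0.0103), Nr0b1 by 0.91 (adjusted p = 0.00745) and Gata1 by 0.83 (adjusted p = 0.0152). The median over the members was 1.23, beside -0.08 over all genes. These calls rested on few libraries: without D16 replicate 2, Sox9 alone passed (1.45, adjusted p = 0.0103) and the other 6 stood at 0.63 to 1.03 with adjusted p from 0.0804 to 0.211. In a fit of the 2 groups alone, Sox9 and Gata4 passed and the other 5 had adjusted p from 0.0587 to 0.0846. Without 22.5 dpp replicate 1, Gata1 and Dmrt1 missed the threshold (0.73 and 0.83, adjusted p = 0.0684 and 0.0516), and without 22.5 dpp replicate 3 Dmrt1 did (0.80, adjusted p = 0.0520). Over all genes 2695 were higher and 2272 lower, against 3250 and 1526 with library size alone and 2258 and 2890 with RLE factors. Other cell types moved here too: of the 18 other Sertoli cell genes 12 were higher and 1 lower (median 1.27), of 4 endothelial markers 3 were higher and of 6 Leydig cell markers 5 were lower. The endothelial sum was 195 to 259 CPM at D16 and 37.6 to 59.8 CPM at 22.5 dpp, and the Leydig sum 224 to 275 CPM and 878 to 965 CPM. Their part in the members' differences was not tested.

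At D30 against 36.5 dpp, 7 of 7 members were higher, where 32.4% of all genes were higher and 35.0% lower. Gata1 and Sox9 differed most, by log2 fold changes of 2.78 ± 0.25 (SE; adjusted p = 1.57e-07) and 2.76 ± 0.31 (SE; adjusted p = 1.06e-06), that is 6.88-fold and 6.79-fold. Wt1, Gata4 and Sox8 differed by 2.43 (adjusted p = 1.87e-06), 2.42 (adjusted p = 5.16e-06) and 2.42 (adjusted p = 2.57e-06). Nr0b1 differed by 2.22 (adjusted p = 7.08e-07) and Dmrt1, the least changed, by 1.86 (adjusted p = 7.07e-06). The median over the members was 2.42, beside -0.03 over all genes, and all 7 calls held in every fit with 1 library left out, with each scaling and with DESeq2. Over all genes 6237 were higher and 6747 lower, against 8833 and 4586 with library size alone and 5168 and 7766 with RLE factors. Other cell types moved as well: of 18 other Sertoli cell genes 16 were higher and 0 lower, and all 4 markers of peritubular myoid cells and 3 of 4 of macrophages were higher. Of 4 endothelial markers 3 were higher and 1 lower. All 6 markers of Leydig cells, of which 3 passed with library size alone, and all 6 of spermatids were lower. Their summed CPM was 235 to 473 at D30 and 69.7 to 76.9 at 36.5 dpp for myoid, 91.3 to 145 at D30 and 34.6 to 43.0 at 36.5 dpp for macrophages, 131 to 174 at D30 and 17.1 to 20.0 at 36.5 dpp for endothelial, and 325 to 600.0 at D30 and 1571 to 1947 at 36.5 dpp for Leydig cells. For Dmrt1, also a gene of spermatogonia, the sum of 8 spermatogonial markers was 773 to 1069 CPM at D30 and 243 to 369 at 36.5 dpp. The part of these cells in the members' differences was not tested.

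**Figure D2:**
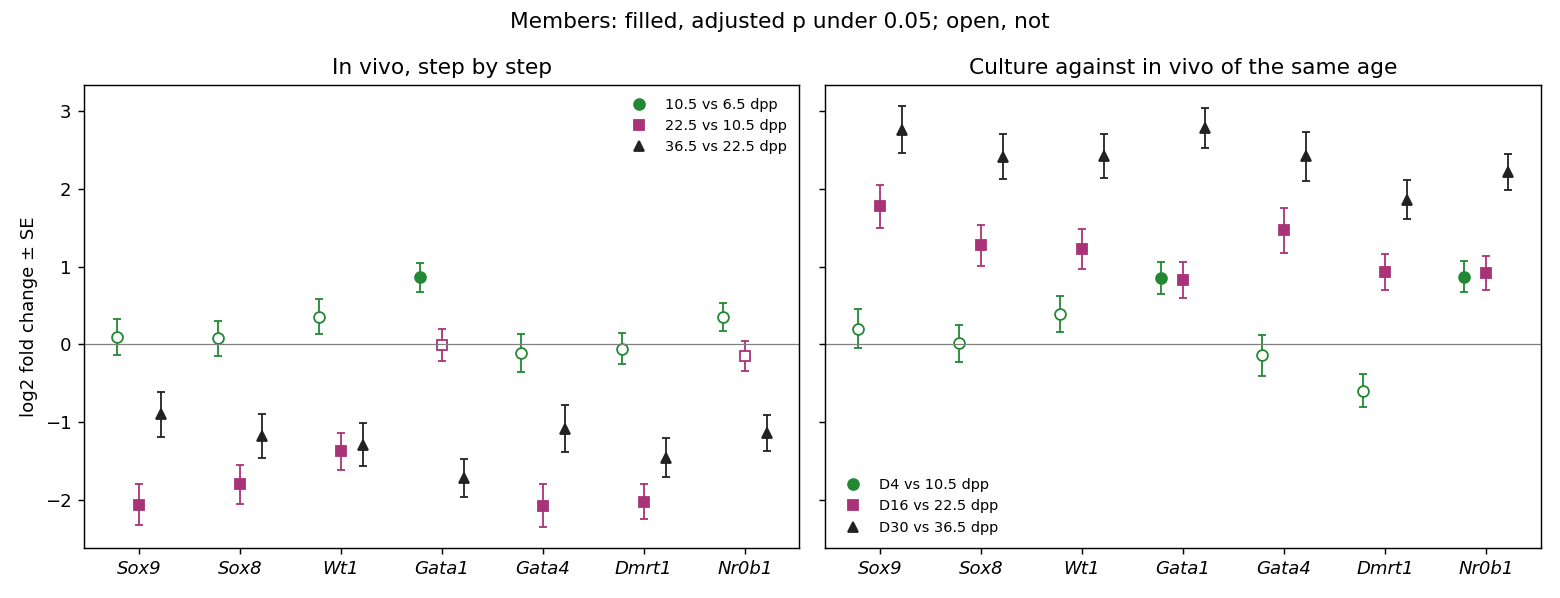
Log2 fold change of each member (vertical axis, ± SE) between successive ages in vivo (left) and between culture and in vivo of the same age (right); filled symbols have an adjusted p under 0.05 and open symbols do not, and the 2 panels share the in vivo libraries. At 22.5 dpp Gata1 and Nr0b1 sit near 0 on the left while the other 5 sit between -2.08 and -1.38, and on the right all 7 members at D30 sit between 1.86 and 2.78.

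The difference between culture and in vivo was shifted upward at D30 compared with D4. For Dmrt1 and Gata4 it changed sign, from -0.60 and -0.14 at D4 to 1.86 and 2.42 at D30. In culture no member passed as higher at D30 than at D4, and 3 fell, Dmrt1 (-1.02), Wt1 (-0.64) and Sox8 (-0.58). The span of the same ages in vivo is 10.5 to 36.5 dpp. There 5 members fell from 10.5 to 22.5 dpp, and every member fell from 22.5 to 36.5 dpp. The difference at D30 minus that at D4 was tested as the difference of the contrasts in the same fit. It passed as positive for 7 of 7 members, where it did for 25.8% of all genes and as negative for 20.7%. It was 2.57 ± 0.40 (SE; adjusted p = 9.27e-05) for Gata4, 2.56 ± 0.38 (SE; adjusted p = 6.17e-05) for Sox9 and 2.46 ± 0.33 (SE; adjusted p = 2.43e-05) for Dmrt1. It was 2.40 (adjusted p = 8.28e-05) for Sox8, 2.04 (adjusted p = 2.38e-04) for Wt1 and 1.93 (adjusted p = 1.26e-04) for Gata1, and smallest, 1.34 (adjusted p = 0.00142), for Nr0b1. The median was 2.40 over the members. Other cell lists moved as well: the difference passed as positive for 14 of the 18 other Sertoli cell genes (median 2.02). It also did for 4 of 4 markers of peritubular myoid cells, 4 of 4 of macrophages, 2 of 4 of endothelial cells and 5 of 8 of spermatogonia. No gene of these lists passed as negative. As negative it passed for 2 of 6 spermatocyte markers and 1 of 6 each of spermatids and Leydig cells. The medians of these 3 lists were -1.70, -2.79 and -1.07. Over all genes 4961 differences passed as positive and 3978 as negative, against 8041 and 2144 with library size alone and 4039 and 4818 with RLE factors.

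At D4 against 6.5 dpp, Gata1, Nr0b1 and Wt1 were higher, 3 of 7 members where 10.8% of all genes were higher. Dmrt1 was lower, 1 of 7 where 10.1% were lower. The D4 explants came from fresh tissue and most 6.5 dpp libraries were CSF, so culture and freezing cannot be told apart against those. At 6.5 dpp the CSF libraries lay below the fresh one for each member in CPM, which was not counted over all genes. The log2 fold change was 1.72 ± 0.19 (SE; adjusted p = 5.36e-06) for Gata1 and 1.22 ± 0.18 (SE; adjusted p = 1.20e-04) for Nr0b1. It was 0.75 (adjusted p = 0.0217) for Wt1 and -0.66 (adjusted p = 0.0282) for Dmrt1. Sox9, Sox8 and Gata4 differed by 0.29 ± 0.23, 0.09 ± 0.23 and -0.25 ± 0.24 (SE). With fresh libraries only, which leaves 1 library at 6.5 dpp, assumed to vary like the other groups, Gata1 alone passed. The calls on Wt1 and Dmrt1 were lost without the third CSF library (adjusted p = 0.0518 and 0.0536) or without D4 replicate 1 (0.103 for both), that on Dmrt1 also without D4 replicate 2 or 3 (0.0931 and 0.0634), and that on Wt1 with library size alone (0.71, adjusted p = 0.0527). From D4 to D16, 0 of 7 members passed with edgeR and 0 with DESeq2, with 0 at an unadjusted p under 0.05, where 18.4% of all genes rose and 5.48% fell. The changes ran from -0.54 for Sox8 to -0.04 for Gata1. Without D16 replicate 2, Wt1 passed (-0.98, adjusted p = 0.0377). From D16 to D30, 0 of 7 passed with either tool where 1.46% of all genes rose and 0.332% fell, and 1 was at an unadjusted p under 0.05, Dmrt1 with -0.53 ± 0.22 (SE; adjusted p = 0.329). The other 6 differed by -0.13 to 0.24.

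From D4 to D30, a comparison added after the data were seen, 3 of 7 members fell and 0 rose, where 17.7% of all genes fell and 27.9% rose. Dmrt1 fell most, with 229 to 259 CPM at D4 and 88.5 to 152 CPM at D30, a log2 fold change of -1.02 ± 0.20 (SE; adjusted p = 4.05e-04). Wt1, with 334 to 436 CPM at D4 and 191 to 298 CPM at D30, had a log2 fold change of -0.64 ± 0.22 (SE; adjusted p = 0.0244). That of Sox8, with 113 to 142 CPM and 64.5 to 109 CPM, was -0.58 ± 0.22 (SE; adjusted p = 0.0439). In all 3 genes the 2 days did not overlap in CPM, and how many of all genes did not overlap either was not counted. Gata4 did not overlap between the days either, at 271 to 292 and 141 to 260.0 CPM, and narrowly missed the threshold, with -0.60 ± 0.24 (SE; adjusted p = 0.0517). It passed in a fit of the 2 groups alone (-0.60, adjusted p = 0.0320). Sox9 differed by -0.40 (adjusted p = 0.163), Gata1 by 0.20 (adjusted p = 0.412) and Nr0b1 by 0.05 (adjusted p = 0.849). The call on Dmrt1 was made in every fit with 1 library left out. That on Wt1 was lost without D4 replicate 1 (-0.51, adjusted p = 0.110), D30 fresh replicate 1 (-0.60, 0.0567) or D30 fresh replicate 2 (-0.57, 0.0704), where Dmrt1 alone passed, and that on Sox8 in 11 of 21 such fits. Beside the members' median of -0.58, that of the 18 other Sertoli cell genes was -0.12 (1 higher, 4 lower) and that over all genes 0.07. Of 8 spermatogonial markers 5 fell, of 6 spermatid markers 6 rose, and of 4 macrophage markers 4 rose. The part of these cells in the members' differences was not tested.

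To set the members against the cells that hold them, each level was also read within its library relative to 18 other Sertoli cell genes, among them Inha, Fshr, Dhh, Kitl, Cldn11 and Clu, as log2 CPM of the member minus the mean log2 CPM of the list (prior count 2). This difference does not depend on scaling between libraries. The mean log2 CPM of the list was itself 7.12 to 7.59 at 6.5 dpp and 7.63 to 7.74 at 10.5 dpp, but between 6.17 and 6.85 at 22.5 dpp and between 4.99 and 5.09 at 36.5 dpp. In culture it stayed between 7.86 and 8.03 at D4, between 7.45 and 7.79 at D16 and between 7.47 and 7.98 at D30. Of the 18 genes, 2 (Rhox5 and Krt18) had a mean under 5 CPM. The test was an exact permutation over libraries, two-sided, adjusted over all genes tested.

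In vivo, Dmrt1, Gata4, Sox9 and Sox8 fell by more than the other Sertoli cell genes did, and Gata1 and Nr0b1 by less. Relative to the list, Dmrt1 stood on the log2 scale at 1.07 to 1.50 at 6.5 dpp, and then lower at 10.5 dpp (0.81 to 1.00), 22.5 dpp (-0.47 to -0.02) and 36.5 dpp (-1.05 to -0.44). Gata1 stood at -2.89 to -2.37 at 6.5 dpp, higher at 10.5 dpp (-2.19 to -1.87), highest at 22.5 dpp (-1.21 to -1.08) and lower again at 36.5 dpp (-2.01 to -1.85). Nr0b1 stood at -1.87 to -1.53 at 6.5 dpp and, in the same order, within -1.73 to -1.48, -0.94 to -0.74 and -1.17 to -0.99 afterwards, with no overlap between the younger and the older libraries. Between the 5 libraries of 22.5 and 36.5 dpp and the 7 of 6.5 and 10.5 dpp, 5 members shifted down, where 9.98% of all genes did, and 2 up, where 60.2% did. The shift was -1.54 (exact p = 0.00126, adjusted p = 0.00269) for Dmrt1, and with the same p values, the smallest that 792 assignments of the libraries allow being 0.00126, it was -1.44 for Gata4, -1.27 for Sox9, -1.12 for Sox8 and 0.74 for Nr0b1. That of Gata1 was 0.94 (exact p = 0.00379, adjusted p = 0.0068) and that of Wt1 -0.56 (exact p = 0.0152, adjusted p = 0.0233). The call on Wt1 was lost with the median of the list (-0.18, adjusted p = 0.365), without the 2 genes under 5 CPM (-0.39, adjusted p = 0.0811) and without 36.5 dpp replicate 1 (-0.48, adjusted p = 0.0537), and that on Gata1 with fresh libraries only (0.70, adjusted p = 0.0648).

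Between culture and in vivo of the same age, the shifts were smaller. Over the 3 stages, with labels permuted within each stage (3000 assignments, smallest p 3.33e-04), 3 members were higher in culture relative to the list, where 2.90% of all genes were, and 1 was lower, where 81.3% were. The mean shift was 0.46 (exact p = 0.0157, adjusted p = 0.0199) for Sox9, 0.35 (exact p = 0.01, adjusted p = 0.0134) for Gata1, 0.20 (exact p = 0.0333, adjusted p = 0.0401) for Nr0b1 and -0.39 (exact p = 0.0207, adjusted p = 0.0257) for Dmrt1. It was 0.21 (exact p = 0.0507, adjusted p = 0.0595) for Wt1, 0.11 (exact p = 0.418, adjusted p = 0.441) for Sox8 and 0.10 (exact p = 0.511, adjusted p = 0.533) for Gata4. At D4 Sox9 stood at -0.04, -0.43 and -0.39 and at 10.5 dpp at 0.03, -0.30 and -0.14, which overlap. At D16 (-0.69 to -0.38) it stood above 22.5 dpp (-1.68 to -0.98), and at D30 it stood at -0.66, -0.56, -0.46 and -0.60 and at 36.5 dpp at -1.19 and -1.34, which do not overlap. The other shifts were not alike at the 3 stages. Gata1 was above in vivo at D4 (-1.67 to -1.40 against -2.19 to -1.87) and at D30 (-1.35 to -1.01 against -2.01 to -1.85), but below it at D16 (-1.35 to -1.26 against -1.21 to -1.08), with no overlap at any of the 3. Nr0b1 was above in vivo at D4 (-1.17 to -1.03 against -1.73 to -1.48) and at D30 (-0.95 to -0.87 against -1.17 to -0.99), and overlapped it at D16 (-1.06 to -0.84 against -0.94 to -0.74). Dmrt1 was below in vivo at D4 (-0.02 to -0.01 against 0.81 to 1.00) and overlapped it at D16 (-0.35 to -0.18 against -0.47 to -0.02) and at D30 (-1.06 to -0.73 against -1.05 to -0.44). These calls depended on the list: without the 6 genes that are also counted among the targets of the members, Dmrt1 alone passed (Sox9 at 0.35 with adjusted p = 0.0541, Gata1 at 0.25 with 0.0642, Nr0b1 at 0.10 with 0.328). Without the 2 genes under 5 CPM, Sox9 and Dmrt1 passed. With the median of the list, the 6 members other than Dmrt1 (-0.23, adjusted p = 0.0785) passed as higher. Since most genes passed, the adjustment over all genes raised the p values little. With the adjustment over 21 tests that was planned, Sox9, Gata1 and Dmrt1 passed and Nr0b1 did not. The call on Nr0b1 was also lost when any 1 of 9 libraries was left out, with adjusted p from 0.0572 to 0.114. That on Dmrt1 was lost without 36.5 dpp replicate 1 (-0.29, adjusted p = 0.0787). Within the culture, between D16 with D30 and D4, 0 of 7 members passed and 0.00% of all genes in either direction. The adjustment set this count: 0.0119 is the smallest p that 84 assignments allow, 4207 genes stood at it, and their adjusted p over 19255 genes was 0.0545. With an unadjusted exact p under 0.05 stood 6 members, and with an adjustment over 21 tests, as planned, 3 members passed, Gata1 as higher and Sox8 and Dmrt1 as lower. The shifts ran from -0.70 for Dmrt1 to 0.29 for Gata1, and Dmrt1 stood at -0.02 to -0.01 at D4 and -1.06 to -0.73 at D30.

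**Figure D3:**
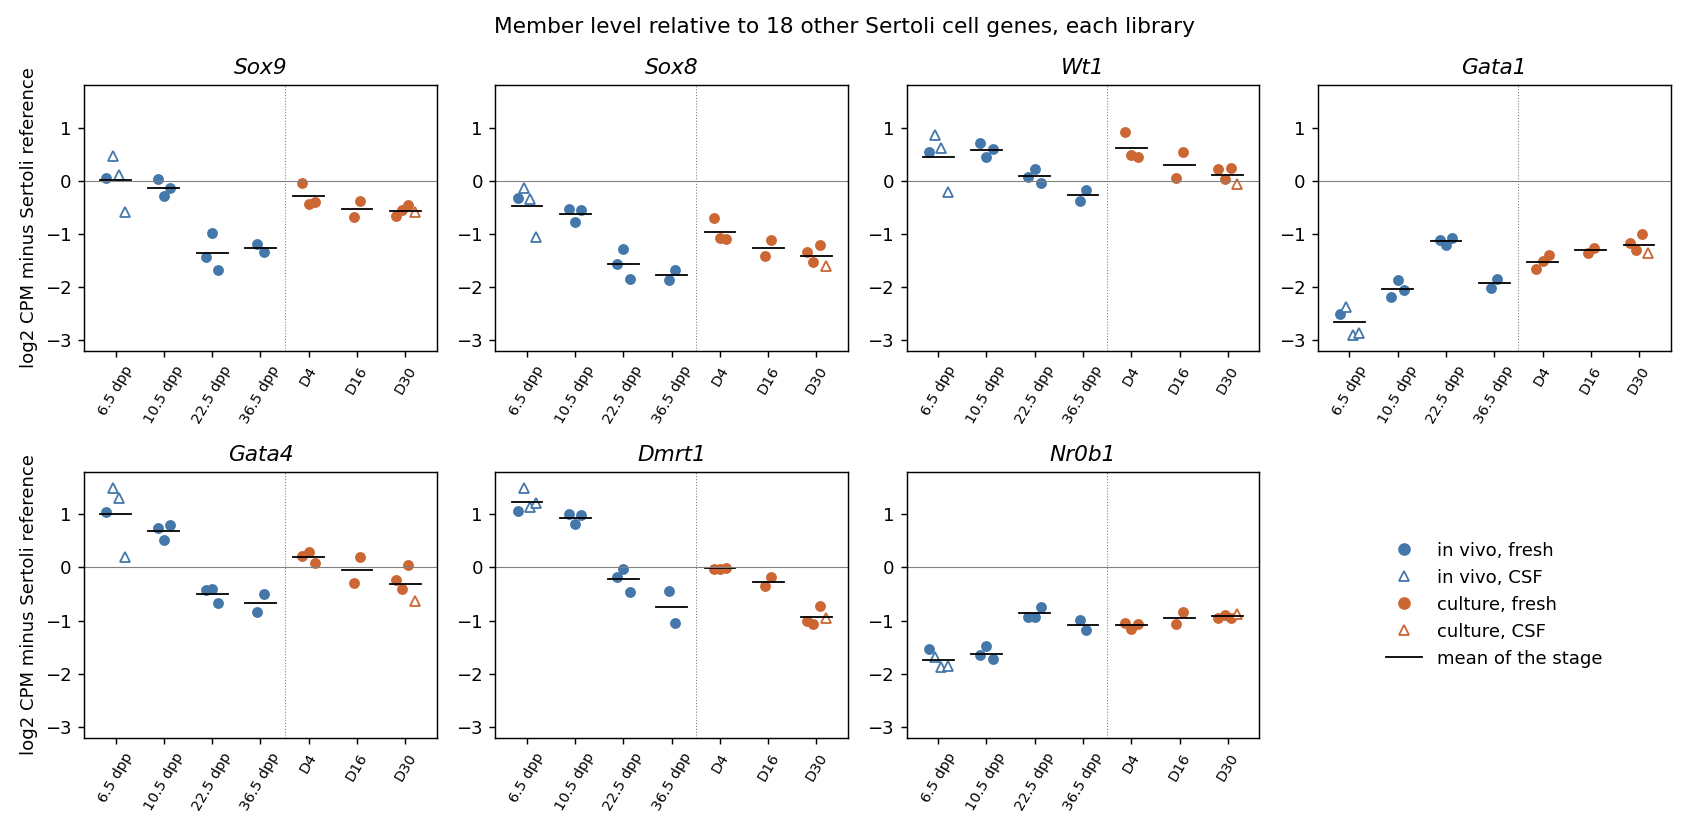
Log2 CPM of each member minus the mean log2 CPM of 18 other Sertoli cell genes (vertical axis) in each library, by stage, with the same colours and symbols as the plot of CPM and a bar at the stage mean. Dmrt1, Gata4, Sox9 and Sox8 step down between 10.5 and 22.5 dpp and Gata1 and Nr0b1 step up, while Dmrt1 at D30 (-1.06 to -0.73) overlaps its level at 36.5 dpp (-1.05 to -0.44).

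The balance between members is given here as ratios of CPM within a library (mean ± SD) with no test. Gata1 stood at 0.0823 ± 0.0284 of the Gata4 level at 6.5 dpp (n = 4), 0.153 ± 0.0330 at 10.5 dpp (n = 3), 0.648 ± 0.0946 at 22.5 dpp (n = 3) and 0.416 ± 0.0339 at 36.5 dpp (n = 2). In culture it stood at 0.305 ± 0.0466 at D4, 0.425 ± 0.0827 at D16 and 0.537 ± 0.0501 at D30. All these means were above that of 6.5 dpp, and those of the culture were below that of 22.5 dpp. The ratio of Sox9 to Sox8 was 1.40 ± 0.0681 at 10.5 dpp, 1.15 ± 0.0749 at 22.5 dpp and 1.44 ± 0.237 at 36.5 dpp, and 1.60 ± 0.0291 at D4, 1.66 ± 0.00189 at D16 and 1.81 ± 0.198 at D30. Dmrt1 to Sox9 was lower in culture than in vivo of the same age, 1.22 ± 0.176 at D4 against 2.09 ± 0.111 at 10.5 dpp, 1.21 ± 0.0799 at D16 against 2.21 ± 0.235 at 22.5 dpp and 0.776 ± 0.0517 at D30 against 1.45 ± 0.323 at 36.5 dpp. Gata1 to Nr0b1 stayed within 0.530 to 0.830 in the stage means. Per kilobase of exon, Dmrt1 had the highest level of the members at 6.5 dpp (149 CPM per kb) and Gata1 the lowest (10.8). At D30 Nr0b1 was the highest (62.7) and Sox8 the lowest (25.9), with Gata1 at 38.3 CPM per kb.

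Over the 21 libraries the same grouping appeared in the correlation of TMM log2 CPM, given as a description, since the libraries share stage and germ cell content. Among Sox9, Sox8, Wt1, Gata4 and Dmrt1, Pearson's r ran from 0.791 (Wt1 with Dmrt1) to 0.987 (Sox8 with Gata4). Gata1 and Nr0b1 had an r of 0.967 with each other, and between 0.174 and 0.747 with the rest. With Spearman's rho these ranges overlapped. Among Sox9, Sox8, Wt1, Gata4 and Dmrt1 it ran from 0.594 (Wt1 with Dmrt1) to 0.944 (Sox8 with Gata4). Gata1 and Nr0b1 had a rho of 0.951 with each other. With the rest they had a rho between -0.0753 and 0.608 (Wt1 with Nr0b1). The genes whose course was most like that of a member, of 19255, were Stk24 (r = 0.987), Rcbtb1 (r = 0.985) and Nuak2 (r = 0.984) for Sox9. For Sox8 they were Irf2bpl (r = 0.993), Gsr (r = 0.992) and Tulp3 (r = 0.989). For Wt1 they were Sema6c (r = 0.987), Secisbp2l (r = 0.987) and Sowahc (r = 0.987). For Gata4 they were Pgghg (r = 0.993), Septin11 (r = 0.989) and Inhbb (r = 0.989), where Inhbb, the activin and inhibin subunit beta B, is itself a Sertoli cell gene. For Dmrt1 they were Klf11 (r = 0.989), Snx12 (r = 0.988) and Marveld2 (r = 0.987). For Gata1 they were Aldh7a1 (r = 0.990), Prelp (r = 0.976) and Nr0b1 (r = 0.967), and for Nr0b1 Septin6 (r = 0.984), Nxnl2 (r = 0.983) and Slc25a1 (r = 0.980). By Spearman's rho, only Secisbp2l for Wt1, Aldh7a1 for Gata1, Snx12 for Dmrt1 and Septin6 for Nr0b1 were again among the 3 nearest.

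Among 16 partners and upstream regulators of the members, 9 fell and 2 rose from 10.5 to 22.5 dpp (median log2 fold change -0.93, beside 0.06 over all genes), and 7 were higher and 4 lower at D30 than at 36.5 dpp (median 0.40, beside -0.03). No call on this list or the 3 lists that follow changed sign with RLE factors or library size alone. With library size alone the count at D30 was 9 higher and 2 lower. Nr5a1, which encodes SF-1, was measured at 274 to 298 CPM at 10.5 dpp, 78.7 to 112 CPM at 22.5 dpp and 38.3 to 44.1 CPM at 36.5 dpp, against 151 to 279 CPM at D30. It was higher at D30 by 1.59 ± 0.25 (SE; adjusted p = 3.73e-05). The ratio of Nr0b1 to Nr5a1 CPM, receptors that bind each other, was 0.233 ± 0.0230 at 10.5 dpp, 0.550 ± 0.0840 at 22.5 dpp and lower again, 0.381 ± 0.0530, at 36.5 dpp. In culture it was 0.449 ± 0.0656 at D4, 0.533 ± 0.00482 at D16 and 0.602 ± 0.123 at D30. The cofactors of GATA factors, Zfpm1 and Zfpm2 (FOG1 and FOG2), passed in none of the 3 comparisons of culture with in vivo, with values from -0.49 to 0.51. Gata6 was higher at D16 (1.54) and D30 (1.36), as was Tcf21, a basic helix-loop-helix factor of the gonad, by 1.26 and 2.44. Cbx2, a Polycomb gene needed for male sex determination, was lower at D4 (-0.79) and higher at D30 (1.39), and Map3k4, a kinase upstream of Sry, was higher at D30 (1.34). At D4 the 5 genes that passed were all lower, where 3.18% of all genes were lower and 4.92% higher. Among them were Fgf9, a growth factor that sustains Sox9 in the fetal testis (-1.09), and Sox10, the third SoxE gene (-1.08). Both were low, Fgf9 at 0.504 to 0.768 CPM at D4 against 1.31 to 1.78 CPM at 10.5 dpp. Sox10 was at 2.95 to 3.33 CPM against 6.54 to 7.36 CPM. Lhx2 and Emx2 were lower at D30 (-3.55 and -1.96), at 1.77 to 2.52 CPM and 3.35 to 5.78 CPM.

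Of 12 genes known or proposed as targets of the members in Sertoli cells, 8 fell and 1 rose from 10.5 to 22.5 dpp (median -1.43), 9 were higher and 1 lower at D16 than at 22.5 dpp (median 0.93), and 9 were higher and 0 lower at D30 than at 36.5 dpp (median 1.67). Fshr, the receptor for follicle-stimulating hormone, was the most changed at D30, by 3.34 ± 0.22 (SE; adjusted p = 1.09e-08), at 41.5 to 67.6 CPM against 3.11 to 3.77 CPM. Dhh, the Sertoli cell hedgehog ligand, and Inhbb followed with 2.37 and 2.09. Amh, anti-Müllerian hormone, whose promoter SOX9, SF-1, WT1 and GATA4 act on, did not stay up with them. It was measured at 430.5 to 652 CPM at 6.5 dpp, 211 to 237 CPM at D4, 53.1 to 57.6 CPM at D16 and 17.3 to 28.9 CPM at D30, and fell by 1.99 from D4 to D16 and by 1.29 from D16 to D30 on the log2 scale (adjusted p = 3.41e-06 and 0.00372), steps at which 0 of the 7 members passed. At 36.5 dpp it was at 3.42 to 4.78 CPM, so it was still higher at D30, by 1.79 ± 0.23 (SE; adjusted p = 4.23e-06). Ptgds, prostaglandin D2 synthase, was higher at D16 (1.35) and did not pass at D30 (-0.68), and Cyp26b1, which degrades retinoic acid, was lower at D4 (-1.36) and higher at D30 (1.44). Rhox5, a homeobox gene, was lower at D16 (-2.02) at 1.16 to 1.20 CPM against 3.59 to 5.57 CPM.

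**Figure D4:**
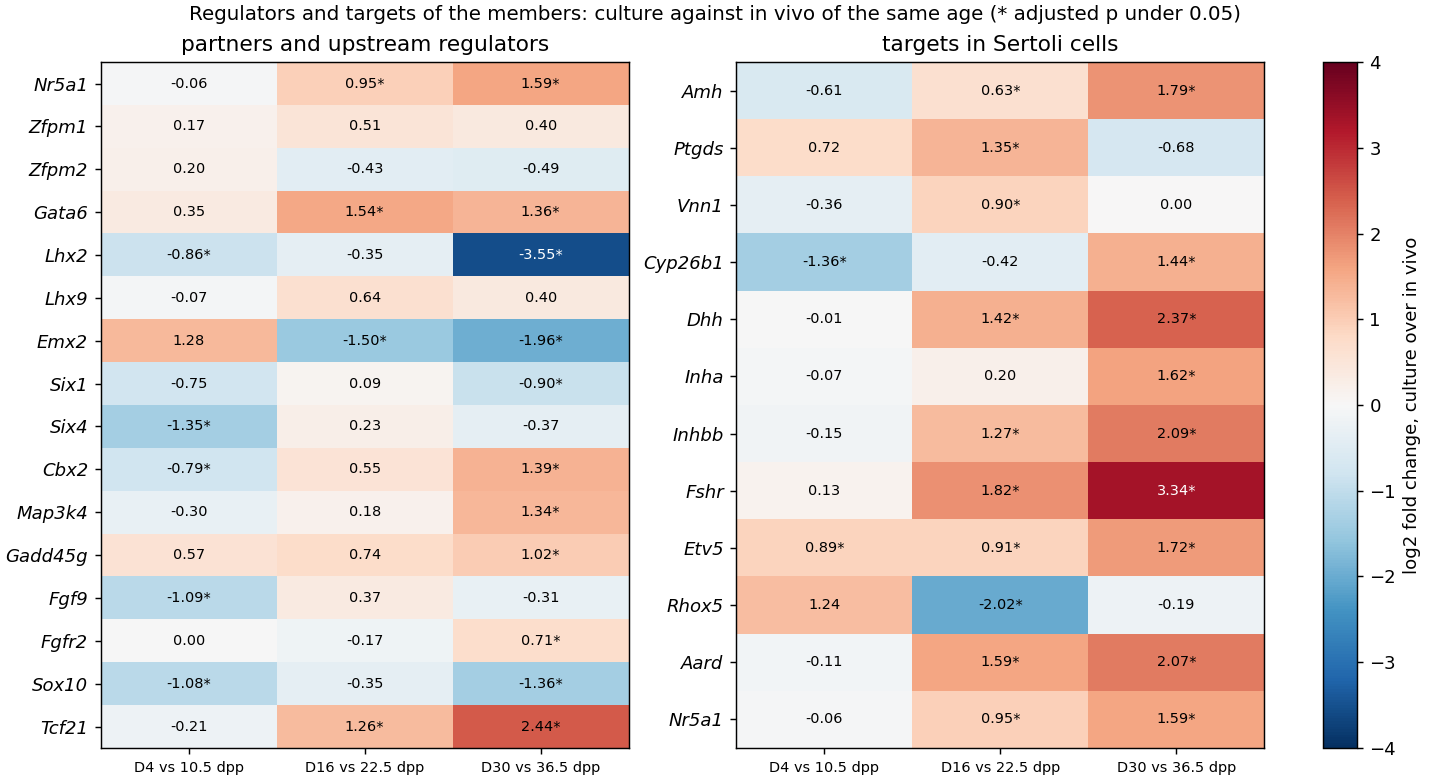
Log2 fold change of culture over in vivo of the same age (colour and printed value; a star marks an adjusted p under 0.05) for 16 partners and upstream regulators (left) and 12 targets in Sertoli cells (right), with Nr5a1 in both lists. Of the targets, 9 are higher at D30 than at 36.5 dpp (32.4% of all genes are), Fshr by 3.34. At D4 5 of the 16 regulators are lower (3.18% of all genes are).

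Since DMRT1 and SOX9 hold back the ovarian somatic programme, 8 of its genes were read beside them. Foxl2, the granulosa cell factor, was close to absent, at most 0.378 CPM in any library. Wnt4 and Fst, a Wnt ligand and follistatin, were higher in culture at all 3 stages. Wnt4 was measured at 24.1 to 32.1 CPM at D4, 7.72 to 15.3 CPM at D16 and 28.0 to 54.7 CPM at D30, against 4.73 to 6.79 CPM at 10.5 dpp, 0.660 to 1.25 CPM at 22.5 dpp and 0.231 to 0.267 CPM at 36.5 dpp, with log2 fold changes of 2.48, 3.45 and 6.70. Fst was measured at 27.2 to 29.4 CPM, 25.2 to 25.5 CPM and 17.4 to 37.4 CPM in culture, with 1.91, 3.20 and 4.39. Both genes are also expressed outside the ovary and outside Sertoli cells. Rspo1, which acts with Wnt4 in the ovary, was lower at D4 (-1.01) and higher at D30 (1.27), Esr2, estrogen receptor beta, was higher at D16 alone of the 3 stages (2.55), and Irx3 passed in none of the 3. In all, 4 of 8 were higher at D16, where 14.0% of all genes were. At D30 5 were higher, Foxl2 among them, where 32.4% of all genes were, and 1, Cyp19a1 (aromatase), was lower, where 35.0% were.

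Of 16 genes of the GATA, SoxE and Dmrt families, Gata5 was not tested (at most 0.132 CPM) and the 15 tested did not all move with the members. From 22.5 to 36.5 dpp Gata2, Dmrta2, Dmrtb1 and Dmrt3 rose by 2.49, 2.47, 1.31 and 2.02 on the log2 scale while the 5 members of these families (Sox9, Sox8, Gata1, Gata4 and Dmrt1) fell. At D30 these 4 relatives were lower than at 36.5 dpp, and Dmrta1 (2.19, at 106 to 155 CPM) and Gata6 were higher together with the 5 members of these families. Dmrtb1, which acts in the switch of spermatogonia to meiosis, was measured at 698 to 811 CPM at 36.5 dpp and 155 to 311 CPM at D30.

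Frozen and fresh tissue are set side by side without a test, since 1 fresh library remained at 6.5 dpp and 1 CSF library was made at D30. In CPM, without TMM factors, all 3 CSF libraries of 6.5 dpp lay below the fresh one for each of the 7 members. Gata1 was at 21.4 to 26.8 CPM against 34.0, and Dmrt1 at 353 to 395 CPM against 403. Gata4 was close in CSF replicates 1 and 2, at 391 and 393 CPM against 396. The TMM factor was 1.12 for the fresh library and 0.997 for the third CSF library, so the order can change with scaling. How many of all genes lay this way was not counted. At D30 the CSF library lay within the CPM range of the 3 fresh libraries for each member, for Sox9 at 159 CPM against 112 to 184. For Nr0b1 it was close to the top of that range, at 130.8 CPM against 131.4 in fresh replicate 3. The TMM factors of these libraries were 1.04 and 1.07, and the position was not counted over all genes.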

How the data were processed

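Polyadenylated RNA of whole testes and testis explants was sequenced as single reads of 50 bases. The authors demultiplexed with bcl2fastq 2.17.1.14, aligned to GRCm38 with STAR 2.7.3a and counted reads per gene with HTSeq 0.12.4. The deposited table holds these raw counts per NCBI gene for 27466 genes, of which 27373 were matched to a symbol through RefSeq. A second kind of value, an RPKM pipeline of the study, was not used here. The authors used DESeq2 for their own comparisons.

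Counts of 21 libraries (28351546 to 69029328 per library) were fitted in 7 stage groups with edgeR 4.0.16 (quasi-likelihood test, TMM factors, filterByExpr, limma 3.58.1, R 4.3.3), and a gene was called at a Benjamini-Hochberg adjusted p under 0.05 over 19255 genes. The fit was also run on simulated counts with known changes. Levels are CPM on the library total. Levels relative to 18 Sertoli cell genes used log2 CPM with a prior count of 2 and exact permutation tests over libraries. Their adjustment was planned over 21 tests and was made over all genes instead. Sequences come from GENCODE M21 transcripts and RefSeq promoters (GRCm38.p6). The methods of the study call the libraries biological replicates, each culture library being a pool of explants, and how many mice gave each library is not given in the sources used here. The sequencing depth limits genes of low counts, and the members had 265 to 24679 counts in each library.

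The members and gene lists were chosen with earlier results of these data known. By the rule for named genes, all members, the listed genes and the 3 genes of nearest profile for each member are named. From the planned list of partners and upstream regulators, 1 gene is not reported here and was left out of the list's counts. Lists of spermatogonia, spermatocytes, spermatids, Leydig, peritubular myoid, endothelial cells and macrophages served as a check on cell content. The macrophage list of 4 genes summed to 12.1 to 17.0 CPM at D4 and 57.5 to 79.3 at 10.5 dpp. Alternatives were RLE factors, library size alone, DESeq2 1.42.0, other filters (none, at least 1 CPM in 2 libraries), groups fitted alone, fresh libraries only, the left-out library put back, a replicate block, stricter fold thresholds (1, or 2 with an adjusted p of at most 0.001) and each library left out. Python 3.11.15, pandas 2.3.3, NumPy 2.4.6, SciPy 1.17.1 and matplotlib 3.10.9 were used.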

Additional observations from a re-analysis of the deposited data

Results flagged for a closer look

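In groups of 4 libraries, 3 of 14 sets of member values held a library far from the others by Dixon's criterion, where chance gives about 1 in 20. Gata4 at 6.5 dpp was at 193 CPM in CSF replicate 3, against 391 to 396 in the other 3. Nr0b1 at 6.5 dpp was at 66.8 CPM in the fresh library, against 43.0 to 46.7 in the 3 CSF libraries. Gata4 at D30 was at 260.0 CPM in fresh replicate 3, against 141 to 155 in the other 3.

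The difference between culture and in vivo was larger at D30 than at D4 for each member, tested as the difference of the contrasts. On the log2 scale it was 2.56 for Sox9, 2.40 for Sox8, 2.04 for Wt1, 1.93 for Gata1, 2.57 for Gata4, 2.46 for Dmrt1 and 1.34 for Nr0b1.

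In the library labelled 6.5 dpp fresh replicate 1, which was left out of the comparisons, Gata1 was at 61.0 CPM, above the 21.4 to 34.0 CPM of the other 6.5 dpp libraries.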

How the results depend on the processing

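Of 54 member values that passed the threshold, repeated 1587 times over all alternatives, 1501 repeats kept direction and call, 86 kept the direction and lost the call, and 0 changed direction. Of 44 values that did not pass, repeated 1290 times, 18 passed and 46 changed direction. With only the groups compared, 0 members passed from 6.5 to 10.5 dpp, 4 at D4 against 10.5 dpp and 2 at D16 against 22.5 dpp. With fresh libraries only, 0 passed from 6.5 to 10.5 dpp and 1 at D4 against 6.5 dpp. With 6.5 dpp fresh replicate 1 put back, 0 passed from 6.5 to 10.5 dpp and 1 at D4 against 10.5 dpp. Where the log2 change had to reach 2 in size and the adjusted p 0.001, 3 passed from 10.5 to 22.5 dpp and 0 in the 6 comparisons 10.5 with 6.5 dpp, 36.5 with 22.5 dpp, D4 with 10.5 dpp, D16 with 22.5 dpp, D4 with 6.5 dpp and D30 with D4. Where it had to reach 1 with an adjusted p under 0.05, 4 passed at D16 against 22.5 dpp, 2 at D4 against 6.5 dpp, 1 at D30 against D4 and 0 at 10.5 against 6.5 dpp and D4 against 10.5 dpp. Relative to the other Sertoli cell genes, 1 member passed between culture and in vivo with the list without targets and 2 without the genes under 5 CPM, an alternative chosen after seeing the data. The adjustment over all genes and the comparison of D30 with D4 were also chosen then. With the adjustment over 21 tests that was planned, the relative counts were 3 between culture and in vivo, 7 in vivo and 3 within the culture. The causes were not tested.

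With 1 library left out, the counts ran from 0 to 1 (10.5 against 6.5 dpp), 5 to 5 (22.5 against 10.5 dpp), 5 to 7 (36.5 against 22.5 dpp), 0 to 2 (D4 against 10.5 dpp), 1 to 7 (D16 against 22.5 dpp), 7 to 7 (D30 against 36.5 dpp), 2 to 4 (D4 against 6.5 dpp), 0 to 1 (D16 against D4), 0 to 0 (D30 against D16), 1 to 4 (D30 against D4) and 7 to 7 (the culture effect at D30 minus that at D4). Relative to the other Sertoli cell genes they ran from 3 to 5 between culture and in vivo, 6 to 7 in vivo and 0 to 0 within the culture, where no gene passed the adjustment over all genes and the range says nothing about stability. Where 1 library was left alone in a group, it was assumed to vary like the other groups.

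Same-numbered libraries did not deviate together in general (52 pairs, median r 0.016, r from -0.575 to 0.661, 15 over 0.1). The median was -0.0074 for libraries of different numbers. No pairing by number was shown, but with so few libraries a group the check cannot exclude one. A replicate block left the counts of members at 1, 5, 7, 2, 7, 7, 4, 0, 0, 2 and 7 in the order just given, and of the calls that of Sox8 at D30 against D4 was lost (-0.56, adjusted p = 0.0550).

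Values that did not pass changed sign as follows. With RLE factors Gata1 at 22.5 against 10.5 dpp stood at 0.055, Sox8 at D4 against 10.5 dpp at -0.011 and Sox8 at D30 against D16 at 0.0055. With DESeq2 the same values were 0.054, -0.011 and 0.0054. With library size alone Dmrt1 at 10.5 against 6.5 dpp stood at 0.0090, Sox8 at D4 against 10.5 dpp at -0.077 and Nr0b1 at D30 against D4 at -0.022. With at least 1 CPM in 2 libraries and with only the groups compared, Gata1 at 22.5 against 10.5 dpp stood at 0.0019 and 0.0058. With fresh libraries only Sox9, Sox8 and Nr0b1 at 10.5 against 6.5 dpp stood at -0.13, -0.24 and -0.030, Sox8 at D4 against 6.5 dpp at -0.22 and Nr0b1 at D30 against D4 at -0.020. With 6.5 dpp fresh replicate 1, Gata4 and Dmrt1 at 10.5 against 6.5 dpp stood at 0.040 and 0.14. With the replicate block Gata1 at D16 against D4 stood at 0.0078 and Sox8 at D30 against D16 at 0.044. Without the genes under 5 CPM the relative shift of Gata4 in culture was -0.00095.

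With 1 library left out, the values that changed sign ran from -0.030 to 0.17 for Sox9 and -0.047 to 0.19 for Sox8 (10.5 against 6.5 dpp), -0.099 to 0.13 for Gata1 (22.5 against 10.5 dpp), -0.089 to 0.086 for Sox8 (D4 against 10.5 dpp) and -0.035 to 0.21 for Sox8 (D4 against 6.5 dpp). From D4 to D16 they ran from -0.24 to 0.14 for Gata1 and -0.38 to 0.12 for Nr0b1. From D16 to D30 they ran from -0.18 to 0.41 for Sox9, -0.30 to 0.29 for Sox8, -0.43 to 0.34 for Wt1, -0.48 to 0.31 for Gata4 and -0.078 to 0.43 for Nr0b1, and from D4 to D30 from -0.017 to 0.12 for Nr0b1.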

Other observations

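The library labelled 6.5 dpp fresh replicate 1 held 111 CPM of Sox9, 65.8 of Sox8, 215 of Wt1, 151 of Gata4, 120 of Dmrt1 and 58.7 of Nr0b1. Sox9, Sox8, Gata4 and Dmrt1 were below the range of the 4 other 6.5 dpp libraries, and Wt1 and Nr0b1 within it. Its 6 spermatocyte markers summed to 2656 CPM, against 116 to 206 in the others, and its 6 Leydig cell markers to 127 CPM, against 612 to 934.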
